A study of Mus musculus with 12 samples.

Results

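The subunits of the interleukin 12 (IL-12) family were examined in bone marrow derived macrophages (BMDMs) that had met medium conditioned by neuroblastoma cells. The members were the 5 genes Il12a, Il12b, Il23a, Il27 and Ebi3, of 54232 genes in the count table, taken by gene symbol. The family was chosen by measured values, since Il12a was among the genes that rose most with tumor-conditioned medium (TCM) and Il12b among those for which R788 had unequal effects in the 2 TCMs. Those contrasts are therefore given for the members as values without a test. BMDMs came from wild-type C57BL/6 mice, were kept in culture for 5 days and were then exposed for 24 h. Cells were given no TCM, or TCM from 1 of 2 neuroblastoma lines: NB9464, in which MYCN is amplified, and NBT3L, in which it is not. Each arm was run without or with 500 nM R788 (fostamatinib), an inhibitor of the tyrosine kinase Syk. This gave 6 groups of 2 libraries: NS (no TCM and no R788), R788, NB9464 TCM, NB9464 TCM + R788, NBT3L TCM and NBT3L TCM + R788. The sources used here give neither a vehicle for R788 nor the medium used where TCM was left out, so TCM and base medium cannot be told apart. Each TCM came from a single cell line, so MYCN status and line cannot be told apart either. Nothing in the labels ties the libraries to separate cultures or animals, so p-values measure the spread between these libraries, which may be technical.

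IL-12 family cytokines are secreted pairs of an alpha chain, shaped like IL-6, and a beta chain that resembles a soluble cytokine receptor. Il12a (the p35 chain) pairs with Il12b (the p40 chain) to form IL-12, which drives interferon gamma production by T and NK cells. Il23a (p19) pairs with the same Il12b to form IL-23, which sustains IL-17 producing T cells. Il27 (p28) pairs with Ebi3 to form IL-27, and Ebi3 with Il12a can form IL-35, both known for dampening as well as shaping T cell responses. Macrophages and dendritic cells are the main producers, and the chains are made from separate genes on separate chromosomes. A cell needs both transcripts of a pair to make the cytokine, and Il12b can also be secreted alone or as a homodimer. Transcripts were measured here, not secreted protein.

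On GRCm38 (mm10), Il12a (ENSMUSG00000027776) lies on chromosome 3 from 68690644 to 68698547, and Il12b (ENSMUSG00000004296) on chromosome 11 from 44400063 to 44414033. Il23a (ENSMUSG00000025383) lies on chromosome 10 from 128296139 to 128298752, Il27 (ENSMUSG00000044701) on chromosome 7 from 126589010 to 126594941, and Ebi3 (ENSMUSG00000003206) on chromosome 17 from 55952640 to 55957022. Il23a and Il27 are on the minus strand and the other members on the plus strand. Promoters are shown for Il12b, Il12a and Ebi3, the members for which RefSeq promoters were found, so that the letters before their starts can be compared. Each run holds 250 bases before a transcript start and 50 bases from it on, from RefSeq on GRCm38.p6, 5′ to 3′. Capitals mark the matches found on either strand.
Il12b, chr11:44399813-44400112, + strand: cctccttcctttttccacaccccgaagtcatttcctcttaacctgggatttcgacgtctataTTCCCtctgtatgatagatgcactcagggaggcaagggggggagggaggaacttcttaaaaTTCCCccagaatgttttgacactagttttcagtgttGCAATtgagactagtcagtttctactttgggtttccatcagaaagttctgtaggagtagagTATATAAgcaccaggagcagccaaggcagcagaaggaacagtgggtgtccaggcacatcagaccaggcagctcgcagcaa
Il12a start 1, chr3:68690394-68690693, + strand: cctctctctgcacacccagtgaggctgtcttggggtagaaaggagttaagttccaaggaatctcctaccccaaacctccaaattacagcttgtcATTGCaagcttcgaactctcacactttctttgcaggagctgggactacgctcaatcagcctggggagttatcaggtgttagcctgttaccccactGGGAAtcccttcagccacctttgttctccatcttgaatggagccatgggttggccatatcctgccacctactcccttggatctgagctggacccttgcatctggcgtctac
Il12a start 2, chr3:68691174-68691473, + strand: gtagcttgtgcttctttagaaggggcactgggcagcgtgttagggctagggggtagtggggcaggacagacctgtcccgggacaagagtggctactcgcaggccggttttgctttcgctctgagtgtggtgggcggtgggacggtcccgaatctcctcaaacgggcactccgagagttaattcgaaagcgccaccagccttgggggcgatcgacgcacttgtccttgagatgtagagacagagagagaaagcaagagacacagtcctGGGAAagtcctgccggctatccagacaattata
Ebi3, chr17:55952373-55952672, + strand: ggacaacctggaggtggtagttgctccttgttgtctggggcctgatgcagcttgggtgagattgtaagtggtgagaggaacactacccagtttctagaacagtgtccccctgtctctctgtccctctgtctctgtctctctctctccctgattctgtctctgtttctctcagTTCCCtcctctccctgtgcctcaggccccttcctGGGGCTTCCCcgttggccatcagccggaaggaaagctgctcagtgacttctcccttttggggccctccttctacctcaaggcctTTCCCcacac

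The motifs searched were the NF-kB consensus, its half-site GGGAA (which lies within some matches of the consensus), the C/EBP core GCAAT, the AP-1 site TGANTCA, the interferon response element and the TATA-type box TATANAA. The Il12b promoter held GCAAT from -91 to -87, TATATAA from -30 to -24 and the half-site at 2 places, counted from the transcript start. The first Il12a promoter held the half-site and the C/EBP core once each, and the second held the half-site once. The Ebi3 promoter was the only one of these with the NF-kB consensus, GGGGCTTCCC from -44 to -35, and held the half-site at 3 places, one of them inside the consensus match. Of 32851 mouse promoters of the same length, 4.51% held the NF-kB consensus, 62.7% the half-site, 26.4% the C/EBP core, 11.3% the TATA-type box, 7.81% the AP-1 site and 3.44% the interferon response element. The matches are a description of the letters and no binding was measured.

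Libraries held between 44977847 and 56449685 counts each. The R788 group had the widest spread between its libraries, with an SD of the log2 difference of 0.334 against 0.214 to 0.254 in the other groups, and 1 of its libraries (SJ8) had the fewest genes detected, 16149. All 8 macrophage markers were detected in every group. Markers of dendritic cells, which also make these cytokines, and of T and NK cells were low. The 8 dendritic cell markers summed to between 0.493 and 3.23 TPM (counts per length, scaled to the same sum in each library). Siglech had 3 counts or fewer in all libraries. Xcr1 had a mean of 0.176 TPM in NS against 0.561 in NB9464 TCM and 0.659 in NBT3L TCM. Ccr7 had 0.655 ± 0.203 against 1.42 ± 1.18 and 1.13 ± 1.15 (SD, n = 2). Zbtb46, Cd209a and Clec9a were lower in both TCMs than in NS, and Flt3 and Dpp4 were higher in 1 and lower in the other. The T and NK cell markers summed to at most 2.85 TPM, with Cd8a, Ncr1, Nkg7 and Ifng at 3 counts or fewer. Cd4 had a mean of 1.04 TPM in NS and 2.14 in R788, against 0.138 to 0.458 in the groups with TCM. The 5 neutrophil markers summed to between 282 and 440 TPM without TCM and to between 533 and 742 TPM with it. Of these, S100a8, which activated macrophages also express, stood at 116 TPM in NS against 465 in NB9464 TCM and 558 in NBT3L TCM. S100a9, Elane and Mpo went the other way, S100a9 with 303 TPM in NS against 210 and 179, Elane with 3.71 against 0.147 and 0, and Mpo with 1.30 against 0 and 0.0460. Ly6g, the lineage-defining marker, stood at or below 0.126 TPM on average in every group. The 4 B cell markers summed to 8.10 to 9.48 TPM in NB9464 TCM against 16.5 to 18.2 TPM with R788 added, and to 5.43 to 5.87 TPM in NBT3L TCM against 13.9 to 14.2 TPM with R788 added. Cd79b made up nearly all of this. The 6 neuroblastoma markers were at 0 in every library without TCM and summed to 0.449 to 1.35 TPM with it, with Th and Chga at 3 counts or fewer. The part of these cells in the results was not tested, and in bulk RNA a change in the share of producing cells and a change in RNA per cell cannot be told apart. Syk itself, the target of R788, was higher with R788 in each medium. Its log2 fold change was 0.26 ± 0.051 (SE) where no TCM was given, 0.32 ± 0.051 with NB9464 TCM and 0.24 ± 0.051 with NBT3L TCM (adjusted p from DESeq2 3.42e-06, 7.32e-09 and 5.64e-05).

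Il12a was silent without TCM and present with it. No count fell on Il12a in any of the 4 libraries without TCM, where 3 counts, the limit that a count of 0 allows, would stand for 0.0853 to 0.107 TPM over all libraries. Normalized counts (counts divided by the DESeq2 size factor of the library) were 387 and 388 in NB9464 TCM, 528 and 595 in NBT3L TCM, 594 and 663 in NB9464 TCM + R788, and 860 and 854 in NBT3L TCM + R788. Against this limit, Il12a was at least 137-fold higher in NB9464 TCM and at least 198-fold higher in NBT3L TCM than in NS. With R788 in both arms, it was at least 245-fold higher in NB9464 TCM. The highest group, NBT3L TCM + R788, reached 24.5 ± 0.209 TPM (SD, n = 2), and ranked between 4326 and 4362 among the genes with counts.

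Il12b followed the same on and off pattern between media, but not the same order among the groups with TCM. It had 6 counts in 1 NS library (SJ1) and none in the other libraries without TCM. Normalized counts were 593 and 634 in NB9464 TCM, 625 and 702 in NBT3L TCM, 725 and 744 in NB9464 TCM + R788, and 308 and 297 in NBT3L TCM + R788. The order therefore ran from NB9464 TCM + R788 at the top over both TCMs without R788, whose libraries overlapped, to NBT3L TCM + R788, which lay below all the other groups with TCM. The fitted log2 fold change over NS was 7.76 ± 0.62 in NB9464 TCM and 7.87 ± 0.62 in NBT3L TCM, against a base of those 6 counts. With R788 in both arms, Il12b was at least 287-fold higher in NB9464 TCM than without TCM. Of all 16281 genes tested, 34.1% were called in NB9464 TCM against NS, 35.3% in NBT3L TCM against NS and 40.4% in NB9464 TCM + R788 against R788, where called means an adjusted p under 0.05. Both genes passed the count minimum only through the libraries with TCM, so a difference from cells without TCM was built into their being tested.

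**Figure D1:**
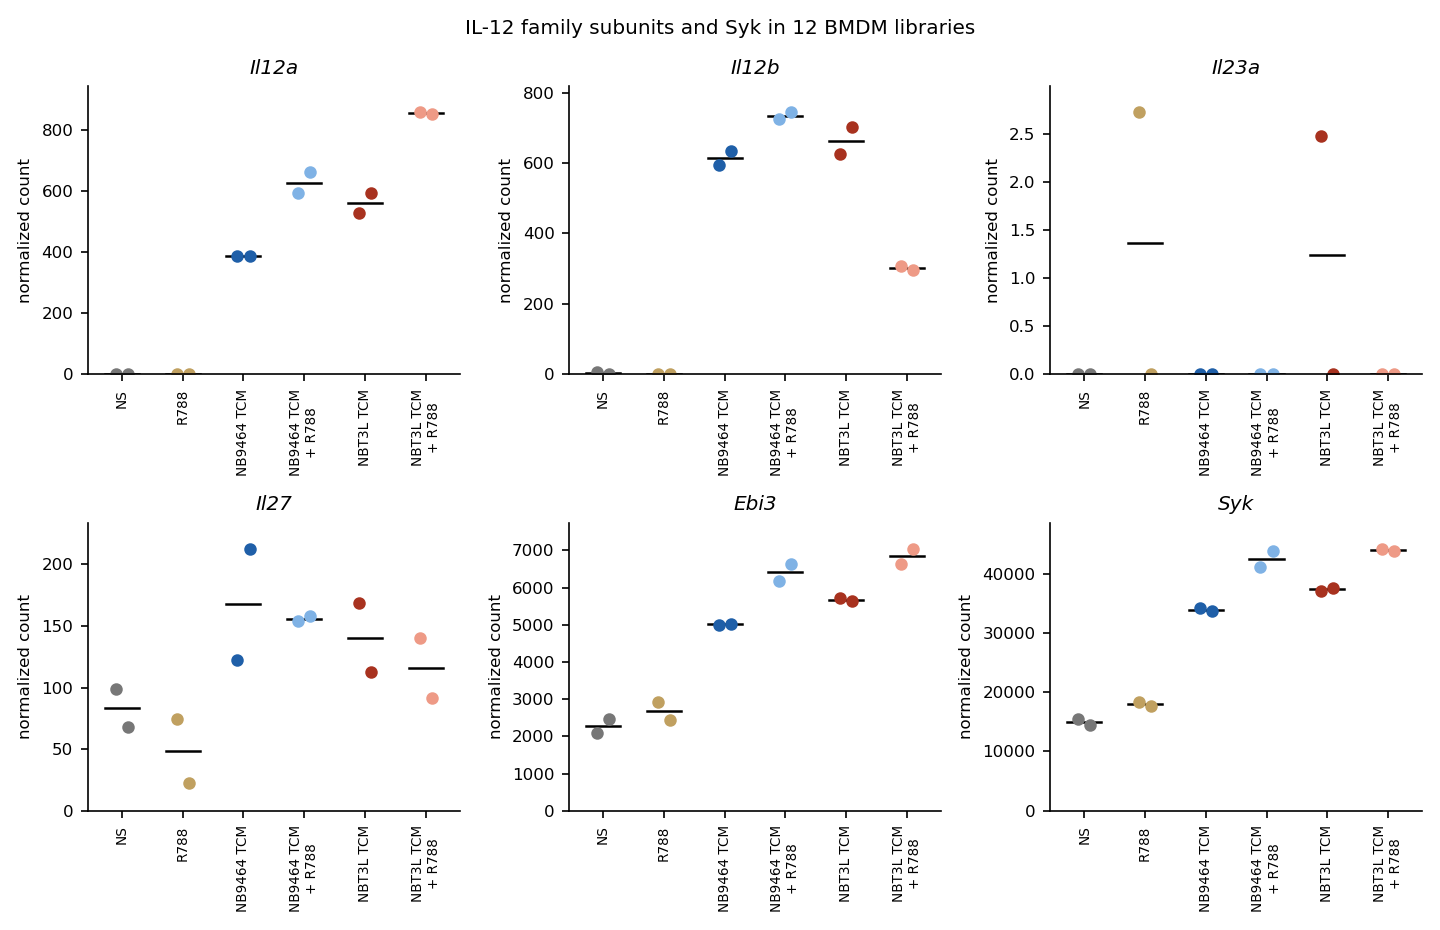
Normalized counts (y axis, linear from 0, a different scale in each panel) of the 5 subunit genes and Syk in the 6 groups (x axis). Points are the 2 libraries of a group and bars their mean. Il12a and Il12b are at or near 0 without TCM, Il12b is lowest among the TCM groups in NBT3L TCM + R788 (308 and 297), and Il23a never exceeds 3 counts.

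The comparison of R788 with no R788 within a medium asks whether subunit transcripts depend on Syk activity. Il12a rose with R788 in both TCMs, 1.62-fold in NB9464 TCM and 1.52-fold in NBT3L TCM. Il12b did not pass the test in NB9464 TCM and was 2.19-fold lower with R788 in NBT3L TCM, the value that its choice rested on in part. For Il12a the log2 fold change was 0.70 ± 0.20 in NB9464 TCM (adjusted p from DESeq2 = 0.00549) and 0.61 ± 0.20 in NBT3L TCM (adjusted p from DESeq2 = 0.0201), with the libraries of both groups apart each time. Libraries of these tests also entered the rise with TCM by which Il12a was chosen, so the p-values are not free of that choice. These calls needed nearly all libraries. Without SJ3, SJ4 or SJ10 the adjusted p in NB9464 TCM was 0.0780, 0.0662 and 0.138, and without any 1 of the 4 NBT3L libraries it lay between 0.0987 and 0.247, while the direction held. For Il12b the log2 fold change in NBT3L TCM was -1.13 ± 0.21. As Il12b was picked from a difference built in part on these libraries, this value is a description and no test is read from it. In NB9464 TCM the R788 libraries of Il12b lay above those without R788, but its log2 fold change was only 0.26 ± 0.21 with a 95% interval of -0.14 to 0.66. The NB9464 libraries enter the same difference, so this value too is a description without a test. The difference between both R788 effects on Il12b was 1.39 ± 0.29 on the log2 scale, the quantity by which it was selected, in a contrast that called 0.706% of all genes. For Il12a the same difference was 0.087 ± 0.29.

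Among the 4 members tested, 2 were called in NB9464 TCM, both higher (Il12a and Ebi3), where 14.5% of all genes were called, 5.79% higher and 8.7% lower. In NBT3L TCM Il12a and Ebi3 were called higher, where 12.6% of all genes were called, 5.33% higher and 7.24% lower. Il12b was lower there and past the threshold, but it was chosen in part from these libraries and is not counted. Without TCM, where R788 called 26.6% of all genes, Il12a had no count in either group. The only member called there was Il12b (adjusted p from DESeq2 = 0.0296, from edgeR = 0.0518), on the 6 counts of SJ1 against none, and no fold can be given at that depth.

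The comparison of both TCMs asks whether media of lines with and without amplified MYCN induce the subunits differently. Without R788, 9.4% of all genes differed between NB9464 TCM and NBT3L TCM, and DESeq2 called 0 of the 4 members, as did edgeR. Il12a was the nearest, with all NB9464 libraries below all NBT3L libraries and a log2 fold change of -0.54 ± 0.20 (95% interval -0.94 to -0.14, adjusted p from DESeq2 = 0.0628). For Il12b the value was -0.11 ± 0.21 (95% interval -0.52 to 0.29). With R788 in both, 9.62% of all genes differed. Il12b was 2.43-fold higher in NB9464 TCM + R788 than in NBT3L TCM + R788, a log2 fold change of 1.28 ± 0.21. These libraries also enter the difference by which Il12b was chosen, so this value too is a description without a test. Il12a stood at -0.45 ± 0.20 in the same comparison (adjusted p from DESeq2 = 0.155), and the libraries of the groups did not overlap. In NBT3L TCM + R788 against R788 alone, a contrast that called 41.4% of all genes, Il12a was at least 335-fold and Il12b at least 118-fold higher.

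**Figure D2:**
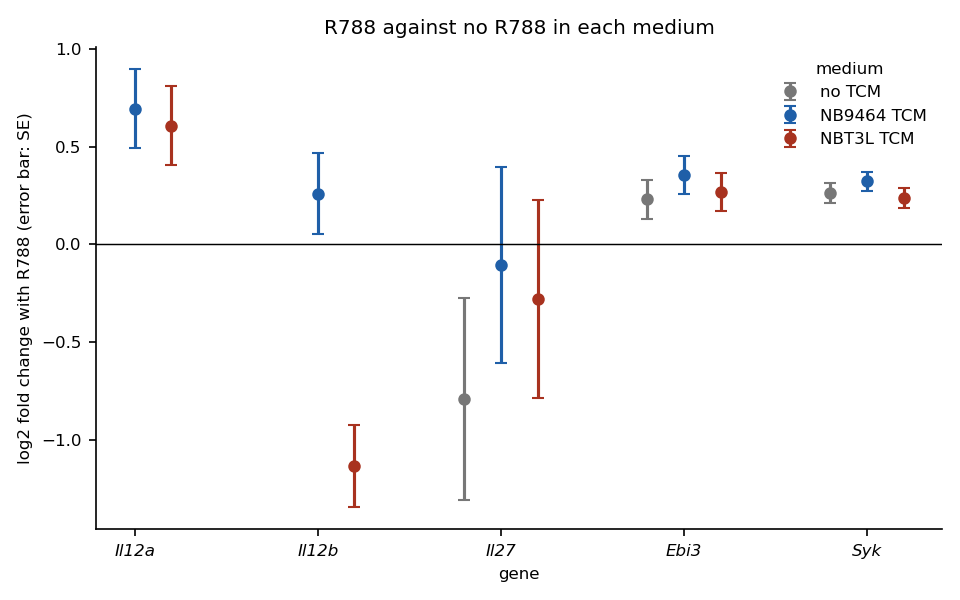
Log2 fold change with R788 against no R788 (y axis) for each gene (x axis) in the 3 media (colors). Points are DESeq2 estimates over 2 libraries a group and bars are standard errors. Il12a and Il12b have no value without TCM, where both were at or near 0 counts. Il12b in NBT3L TCM lies at -1.13 with a bar of 0.21, Il27 lies below 0 with bars of 0.50 to 0.52, and Il12a, Ebi3 and Syk lie above 0.

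Il23a, the chain that would turn Il12b into IL-23, was practically absent. It had 5 counts in all, 2 in an NBT3L TCM library (SJ5) and 3 in an R788 library (SJ7), and 0 in the other 10 libraries. It did not reach the minimum of 10 counts in 2 libraries and was not tested. At this depth 3 counts stand for 0.0646 to 0.0811 TPM of Il23a, against 7.47 to 19.0 TPM on average for Il12b in the groups with TCM. No ratio of the IL-23 pair could therefore be formed in any group.

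Ebi3 was the most abundant subunit and the only one well expressed in all groups. Normalized counts were 2090 and 2480 in NS, 2937 and 2429 in R788, 4996 and 5027 in NB9464 TCM, and 5723 and 5633 in NBT3L TCM. They reached 6190 and 6640 in NB9464 TCM + R788 and 6649 and 7047 in NBT3L TCM + R788. Without TCM the groups with and without R788 overlapped, and all libraries with TCM lay above all libraries without. The log2 fold change over NS was 1.13 ± 0.099 in NB9464 TCM and 1.31 ± 0.099 in NBT3L TCM. With R788 in both arms it was 1.26 ± 0.098 in NB9464 TCM and 1.35 ± 0.098 in NBT3L TCM, also given without a test. R788 raised Ebi3 by a log2 fold change of 0.36 ± 0.097 in NB9464 TCM (adjusted p from DESeq2 = 0.00265, from edgeR = 0.0220) and of 0.27 ± 0.097 in NBT3L TCM (adjusted p from DESeq2 = 0.0383, from edgeR = 0.0805). The second call was lost when any 1 of the 4 libraries was left out, and the first without SJ10 (adjusted p = 0.0941). Without TCM the value was 0.23 ± 0.099 (95% interval 0.036 to 0.43, adjusted p from DESeq2 = 0.0642), and it would be called without SJ8 (adjusted p = 0.00135) or SJ2 (adjusted p = 0.0102).

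Il27, the partner of Ebi3, was low and varied widely between libraries. Normalized counts were 98.6 and 68.3 in NS, 74.5 and 22.4 in R788, 122 and 213 in NB9464 TCM, and 168 and 113 in NBT3L TCM. With both treatments they were 154 and 158 in NB9464 TCM + R788 and 140 and 91.4 in NBT3L TCM + R788. The lowest value came from SJ8, the library with the fewest genes detected. The log2 fold change over NS was 1.01 ± 0.51 in NB9464 TCM and 0.75 ± 0.51 in NBT3L TCM, and with R788 in both arms 1.69 ± 0.51 in NB9464 TCM. With 1 library left out these ran from 0.55 to 1.35, from 0.43 to 1.04 and from 1.06 to 2.80. In NBT3L TCM + R788 against R788, also given without a test, the log2 fold change of Il27 was 1.26 ± 0.52, and 0.63 without SJ8. The values for R788 were -0.79 ± 0.52 where no TCM was given, -0.10 ± 0.50 with NB9464 TCM and -0.28 ± 0.51 with NBT3L TCM, none of them called, with 95% intervals of -1.81 to 0.23, -1.09 to 0.88 and -1.27 to 0.71. Without SJ7 the first of these was -1.90 and called (adjusted p from DESeq2 = 0.00441). Neither Il27 nor Ebi3 was called for a difference of its R788 effect with TCM from that without, in contrasts that called 12.5% of all genes for NB9464 TCM and 10.1% for NBT3L TCM. The 95% interval of the difference ran from -0.15 to 0.40 for Ebi3 with NB9464 TCM and from -0.23 to 0.31 with NBT3L TCM. For Il27 it ran from -0.73 to 2.10 and from -0.91 to 1.93, too wide to limit a difference of several-fold.

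Both genes overlap a neighbor on the other strand, and whether counting used the strand was not given in the sources used here. Exons of Il27 and Apobr share 103 bases, 10.1% of the Il27 exons, and Apobr had between 6194 and 9973 counts. The antisense gene Gm16712 shares 270 bases with Ebi3 and had 216 to 439 counts, against 2225 to 7013 for Ebi3.

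Set side by side per length, the chains of IL-12 lay within 1.41-fold of each other in 3 of the 4 groups with TCM. The log2 ratio of Il12b to Il12a, each count divided by gene length, was 0.45 ± 0.065 (SD, n = 2) in NB9464 TCM, 0.031 ± 0.0023 in NBT3L TCM and 0.018 ± 0.086 in NB9464 TCM + R788. In NBT3L TCM + R788 it was -1.71 ± 0.027, so that Il12a exceeded Il12b 3.23-fold and 3.32-fold in its libraries. In TPM, Il12b was 16.6 ± 0.173, 16.4 ± 1.33 and 19.0 ± 0.994 in the first 3 groups and 7.47 ± 0.204 in the last, while Il12a was 12.2 ± 0.422, 16.0 ± 1.33, 18.8 ± 2.10 and 24.5 ± 0.209. The ratio was lower with R788 than without it in all library pairs of both TCMs, with a difference of -0.43 on the log2 scale in NB9464 TCM and -1.74 in NBT3L TCM. The mean of both was -1.09. It holds the values by which Il12b was chosen, and the 36 arrangements of these 8 libraries within medium allow no p below 0.0556, so no test is read from it. With lengths of the longest transcripts in place of merged exons the ratios in NBT3L TCM and NB9464 TCM + R788 became -0.34 and -0.35. Both mean ratios were still within 1.41-fold. The size and sign of a ratio thus depend on the length used, while the difference with R788 does not, since length cancels in it.

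For IL-27 the chains were far from balance in every group. Ebi3 exceeded Il27 per length between 18.4-fold, in an NS library, and 93.2-fold, in SJ8 of the R788 group. The ratio of Il27 to Ebi3 differed between R788 and no R788 by -1.23 on the log2 scale where no TCM was given, by -0.40 with NB9464 TCM and by -0.55 with NBT3L TCM. In a 2-sided exact permutation test over the 12 libraries within medium, the mean difference was -0.73 with p = 0.0463. The smallest p that the 216 arrangements allow is 0.00926. Adjusted over 2 pairs the p of this test was 0.0556, which did not pass the threshold. That adjusted value is the p of the IL-12 pair, the smallest its 36 arrangements allow, from which no test is read, so no conclusion is drawn. Ebi3 also exceeded Il12a, with which it can form IL-35, by 11.2-fold to 18.8-fold in the libraries with TCM. The lowest of these values came from NBT3L TCM + R788 and the highest from NB9464 TCM.

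**Figure D3:**
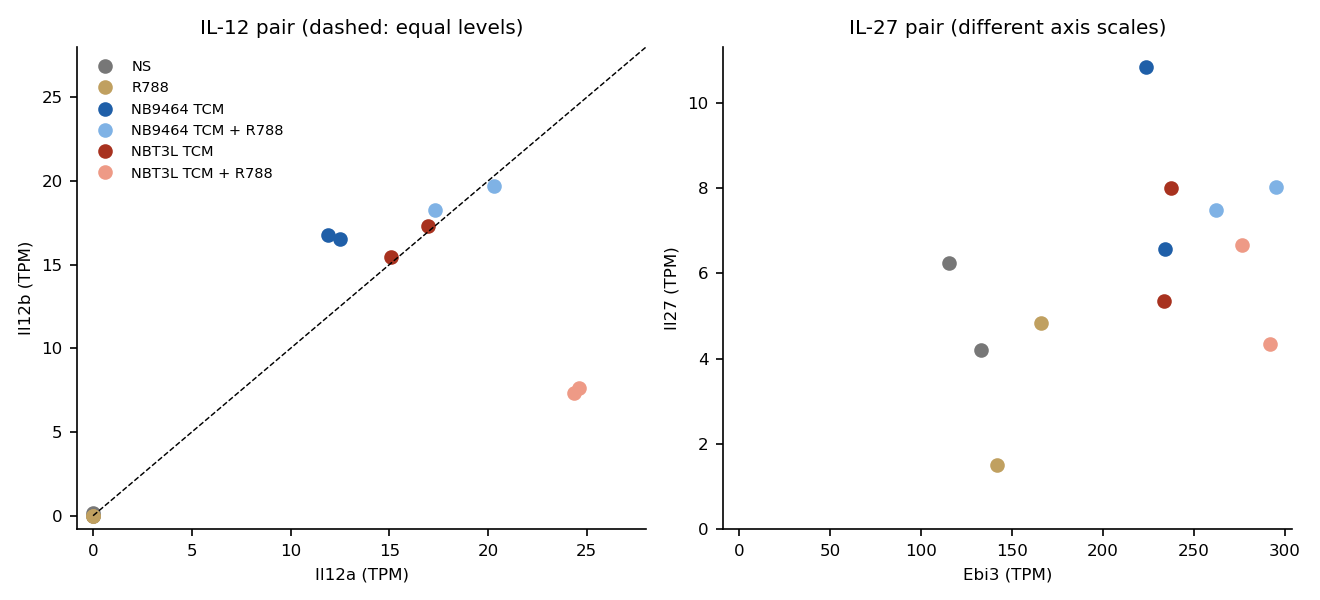
TPM of the IL-12 chains (left, Il12a on the x axis and Il12b on the y axis, dashed line at equal levels) and of the IL-27 chains (right, Ebi3 on the x axis and Il27 on the y axis, with different scales). Each point is 1 library, colored by group. NBT3L TCM + R788 lies far below the line, with Il12a 3.23-fold and 3.32-fold over Il12b, and Ebi3 is above Il27 in all 12 libraries.

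The receptor chains were examined because macrophages can also answer these cytokines. With R788, 1 of 5 receptor chains was called lower in NB9464 TCM and 2 of 5 in NBT3L TCM. None was called higher. Of all genes, 8.7% and 7.24% were called lower. The median log2 fold change of the chains was -1.16 and -0.85 against -0.0031 and 0.0033 over all genes. In NB9464 TCM mean normalized counts of Il23r and Il27ra fell without a call, from 83.3 to 37.2 and from 11.2 to 4.33. Those of Il12rb2 and Il6st rose there without a call, from 42.9 to 55.8 and from 1465 to 1560. Il12rb1, the chain shared by the receptors of IL-12 and IL-23, fell in NB9464 TCM from a mean of 371 to 163 normalized counts (log2 fold change -1.19 ± 0.31, adjusted p from DESeq2 = 0.00126), and its mean in NBT3L TCM fell from 325 to 141 (-1.20 ± 0.31, adjusted p from DESeq2 = 0.00142). Il23r, the specific chain of the IL-23 receptor, fell from 299 to 78.3 in NBT3L TCM (-1.93 ± 0.52, adjusted p from DESeq2 = 0.00238, from edgeR = 0.0534). It was near 0 without TCM, with a mean of 1.90 in NS. Il12rb2, the chain specific to IL-12, ran the other way, with a mean of 502 in NS against 42.9 in NB9464 TCM and 123 in NBT3L TCM (log2 fold changes -3.55 ± 0.35 and -2.03 ± 0.33, adjusted p from DESeq2 3.33e-23 and 5.28e-09). Il6st, the chain that IL-27 shares with IL-6, was also lower with TCM than in NS, with log2 fold changes of -1.06 ± 0.10 and -1.08 ± 0.10, and was not called with R788. Il27ra stayed low, between 4.33 and 17.8 normalized counts on average.

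Of 9 genes of signalling behind these receptors, 8 were tested and Tbx21 had no count. R788 raised 2 and lowered 3 in NB9464 TCM, and raised 1 and lowered 3 in NBT3L TCM, out of 8, against 14.5% and 12.6% of all genes called in either direction. Socs3, an inducible inhibitor of Stat3 signalling, had a mean of 489 normalized counts in NS, which rose to 18505 with NB9464 TCM and to 20825 with NBT3L TCM, and fell with R788 by 0.48 ± 0.18 in NB9464 TCM (adjusted p from DESeq2 = 0.0376) and by 0.68 ± 0.18 in NBT3L TCM (adjusted p from DESeq2 = 0.00140). Stat3 fell by 0.18 ± 0.068 in NB9464 TCM (adjusted p from edgeR = 0.0857) and by 0.27 ± 0.068 in NBT3L TCM. Tyk2, the kinase bound to Il12rb1, rose by a log2 fold change of 0.25 ± 0.076 and 0.24 ± 0.077. Jak2, bound to Il12rb2 and Il23r, rose with R788 by 0.46 ± 0.097 in NB9464 TCM (adjusted p from DESeq2 = 3.73e-05) and stood at 0.077 ± 0.097 in NBT3L TCM. Stat4, the main relay of IL-12, was called in none of the 9 comparisons of groups.

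Some of the 12 transcription factors known to act on subunit genes in macrophages changed with R788 in each medium. Without TCM 3 were higher and 4 lower, where 26.6% of all genes were called, and Fos fell from a mean of 3608 to 1538 normalized counts and Batf3 from 141 to 68.9. In TCM 2 and 3 of the 12 were called, against 14.5% and 12.6% of all genes. In NB9464 TCM 2 were called higher, Spi1 (0.26 ± 0.062, adjusted p from DESeq2 = 5.39e-04) and Cebpb (0.20 ± 0.068, adjusted p from DESeq2 = 0.0185, from edgeR = 0.0629). In NBT3L TCM Spi1 was higher (0.25 ± 0.062) and 2 were lower, Rel (-0.31 ± 0.11, adjusted p from DESeq2 = 0.0407, from edgeR = 0.0776) and Irf1 (-0.28 ± 0.098, adjusted p from DESeq2 = 0.0347, from edgeR = 0.0757). Rel encodes the NF-kB subunit c-Rel and Irf1 an interferon regulatory factor, both known for activating Il12b or Il12a. The median over the list was 0.045 in NB9464 TCM and 0.040 in NBT3L TCM. TCM against NS called 7 higher and 4 lower in NB9464 TCM and 4 higher and 4 lower in NBT3L TCM. Cebpb had the largest rise among those called in both TCMs, 1.09 ± 0.069 and 1.17 ± 0.069, and Irf5 fell in both, by 0.62 ± 0.078 and 0.72 ± 0.078. Irf1 also fell in both, by 0.71 ± 0.097 and 0.29 ± 0.097.

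The 8 genes listed as restraints of subunit transcription were mostly higher with TCM, where 34.1% and 35.3% of all genes were called against NS. In NB9464 TCM 6 were called higher and 1 lower than in NS, with a median log2 fold change of 1.32 against 0.021 over all genes, and in NBT3L TCM 6 were higher and none lower, with a median of 0.97. With R788 in both arms all 8 were higher in either TCM. Nfkbiz had the largest change in NB9464 TCM, from a mean of 1218 normalized counts in NS to 9955 (3.03 ± 0.067). Its product is a nuclear NF-kB cofactor that can also promote Il12b, so its place on this list is not clear-cut. Il10, which represses IL-12 subunits, rose by 2.07 ± 0.19 in NB9464 TCM and 1.45 ± 0.19 in NBT3L TCM and was higher in the first (0.62 ± 0.18, adjusted p from DESeq2 = 0.00753). R788 lowered Il10 without TCM (-1.14 ± 0.21, adjusted p from DESeq2 = 9.16e-07) and gave 0.35 ± 0.18 in NB9464 TCM and 0.40 ± 0.18 in NBT3L TCM, neither of them called. In the TCMs R788 raised 3 and lowered 2 of the list in NB9464 TCM and raised 2 and lowered 1 in NBT3L TCM, against 14.5% and 12.6% of all genes called. Nfkbiz and Bcl3 rose in both, and Atf3, a repressor of Il12b, fell in both, by 0.19 ± 0.064 and 0.25 ± 0.064. By edgeR 2 of the list were higher and 0 lower with R788 in NB9464 TCM, so the fall of Atf3 there was not called by it.

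**Figure D4:**
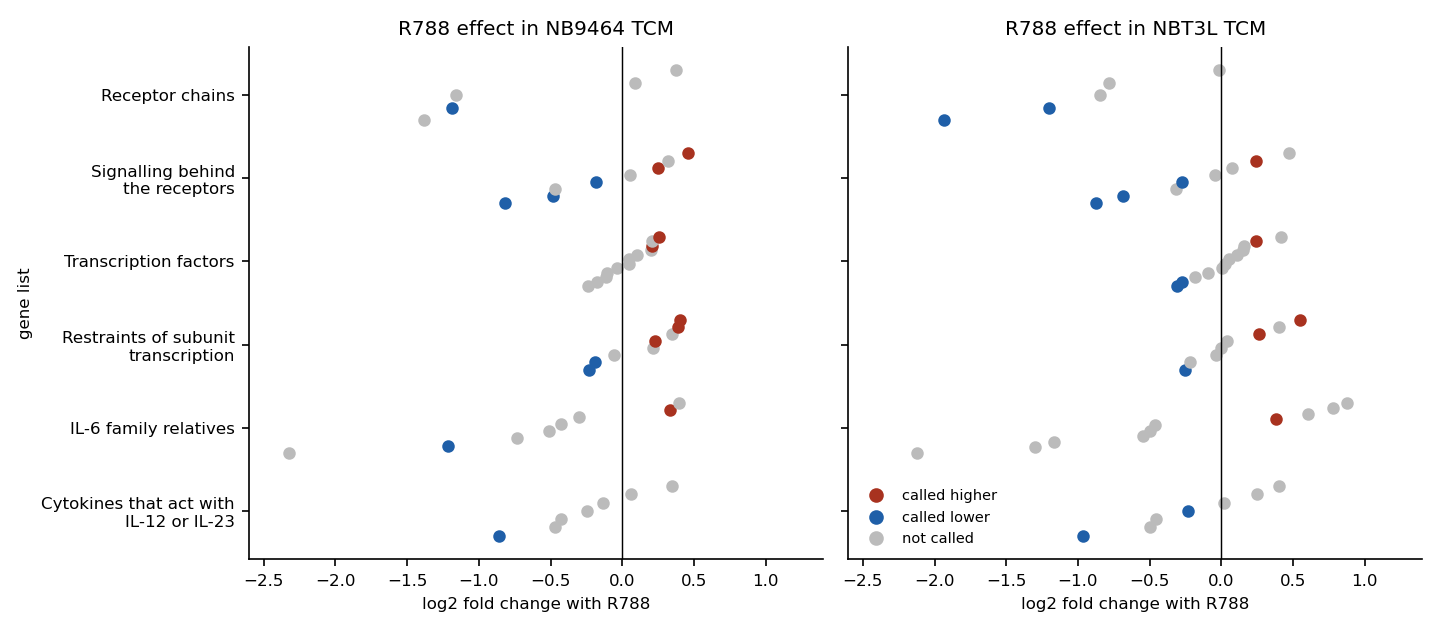
Log2 fold change with R788 (x axis) of the listed genes, a row of points per list (y axis), in NB9464 TCM (left) and NBT3L TCM (right). Each point is 1 gene, red where called higher, blue where called lower and grey where not called, with genes at 3 counts or fewer in either group left out. Called genes lie on both sides of 0 in the lists of signalling, transcription factors in NBT3L TCM and restraints, and only below 0 among receptor chains and cytokines.

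Of 12 IL-6 family relatives, which share the fold of the alpha chains or their receptors, 10 were tested. R788 called 2 in NB9464 TCM and 1 in NBT3L TCM, near the 14.5% and 12.6% of all genes. Il6ra, the binding chain for IL-6, rose in both TCMs (0.34 ± 0.086 and 0.38 ± 0.088), and Osm fell in NB9464 TCM (-1.22 ± 0.30, adjusted p from DESeq2 = 7.48e-04). Il6 itself rose from a mean of 1.90 in NS to 293 normalized counts with NB9464 TCM and 691 with NBT3L TCM, and R788 gave -0.42 ± 0.26 and -0.50 ± 0.25, neither called. Of the 7 cytokines that act with IL-12 or IL-23, R788 lowered 1 in NB9464 TCM and 2 in NBT3L TCM and raised none, where 8.7% and 7.24% of all genes were lower. Il1b, which acts with IL-23 on T cells, fell by 0.86 ± 0.11 in NB9464 TCM and 0.96 ± 0.096 in NBT3L TCM, from means of 1044 and 9305. Tnf fell in NBT3L TCM by 0.23 ± 0.073 (adjusted p from DESeq2 = 0.0121, from edgeR = 0.0649). Il18, which acts with IL-12 on interferon gamma, was lower with TCM than in NS with log2 fold changes of -1.03 ± 0.20 and -0.996 ± 0.20, opposite to Il12a and Il12b, and Il15 fell likewise (-1.57 ± 0.19 and -1.52 ± 0.19).

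The genes most like each member over the 12 libraries, among 10845 compared, were found by the Pearson correlation of log2 normalized counts. For Il12a these were the scavenger receptor gene Marco (r = 0.999), Nhs (0.999) and Zc3h12a (0.998), which encodes an RNase that degrades cytokine transcripts. For Il12b they were Cd38 (0.994), an NAD-consuming surface enzyme, Hacd3 (0.993) and Slco3a1 (0.992). For Ebi3 they were the transcription factor gene Spic (0.995), Vnn3 (0.995) and Syk (0.990), and for Il27 Epop (0.958), Kyat3 (0.930) and Agfg2 (0.929). The members were less like each other. Il12b stood at 0.972 with Il12a, place 211 in the order for Il12a and place 63 in that for Il12b. Ebi3 stood at 0.974 with Il12a, place 194 in the order for Il12a and place 86 in that for Ebi3, and Il27 at 0.666 with Ebi3. The libraries fall into those with and without TCM, which all of these values share, so r mainly describes that step. Cd38 showed the step without a rise under R788, with means of 16166 and 16445 normalized counts in NB9464 TCM without and with R788 and 12458 and 10866 in NBT3L TCM. Spic was higher with R788 by a larger factor than Ebi3, with means of 576 and 1367 in NB9464 TCM and of 786 and 1625 in NBT3L TCM.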

How the data were processed

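RNA of BMDMs was poly(A)-selected and sequenced. The authors deposited raw counts of reads for 54232 Ensembl genes in each of 12 libraries, neither normalized nor divided by length. Per the methods and the submitters' processing notes, reads were aligned to mm10 with STAR 2.6.1d and quantified with Salmon 1.4.0. The counting settings and use of strand were not given in the sources used here. The methods describe single reads, in triplicate, whereas by the labels reads were paired and each group had 2 libraries. Even values made up 65.2% to 67.9% of counts from 1 to 40, whose cause was not tested, and counts were also halved as an alternative. Groups came from the labels, which number the libraries SJ1 to SJ12. No batch was labelled. Symbols and positions came from GENCODE M21 (54165 IDs matched), and gene lengths from the table. TPM was computed from counts and these lengths.

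The members and lists were chosen with earlier results of these data known. A gene was tested if 2 or more libraries reached 10 counts, which left 16281 genes and 4 of 5 members. The test was the Wald test of DESeq2 1.42.0 (R 4.3.3) on a single model with a mean for each group, fitted to all 12 libraries, with Benjamini-Hochberg adjustment over all genes. Calls needed an adjusted p under 0.05. Log2 fold changes are given ± SE, unshrunken. Alternatives were edgeR 4.0.16, TMM scaling, no count minimum, halved counts, a fit of only the libraries compared, and each library left out. A group with at most 3 counts in each library was set to 3 counts per library for a lower bound of a fold, and no fold was given where both groups were at or under it on average. Subunit ratios used a prior count of 0.5. Named genes were the members, Syk, the genes of 6 lists that were called or that the text describes, and the 3 protein-coding genes most like each tested member, among those with a mean of at least 50 normalized counts. RefSeq promoters were found for 3 members. The tests were checked on simulated data. Counting intervals and limits cover counting error only. All count columns were used. The values of some listed genes are not reported here.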

Additional observations from a re-analysis of the deposited data

Results flagged for a closer look

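The effect of R788 on Il12b went in opposite directions in the 2 TCMs in all library pairs. The log2 fold change was 0.26 in NB9464 TCM, with a 95% interval of -0.14 to 0.66, and -1.13 in NBT3L TCM. The difference was the quantity by which Il12b had been chosen and was not tested again. The fitted difference of the R788 effect on Il12b between NB9464 TCM and no TCM, 4.44 on the log2 scale, passed DESeq2's threshold (adjusted p = 0.0358) and not that of edgeR (adjusted p = 0.0803). It rests on the 6 counts of 1 NS library and was lost without that library (SJ1), and also without SJ3, SJ7, SJ8 or SJ9, so its size cannot be read.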

How the results depend on the processing

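With 2 libraries a group, small changes of genes with few counts or a wide spread and levels of Il23a are limited by replicates and depth. The count of members called with R788 without TCM was 0 by edgeR, with halved counts and in a fit of only the libraries compared, and lay between 0 and 2 when 1 library was left out. In NB9464 TCM this count changed with the library left out, each lone library being assumed to vary like the other groups. In NBT3L TCM the calls of Il12a and Ebi3 were lost whichever library was left out. That of Il12b, chosen in part from these libraries, was kept. The count for the interaction of R788 with NB9464 TCM was 0 by edgeR and with halved counts, and 0 to 1 with 1 library left out. Halving the counts against the same limit of 3 counts lowers every bound by construction, for Il12a to 6.10 in NB9464 TCM and 6.63 in NBT3L TCM over NS, and with R788 to 6.94 for Il12a and 7.17 for Il12b in NB9464 TCM (log2). The first of these bounds was 7.09 with edgeR or TMM scaling and 7.09 to 7.10 with 1 library left out, and the last 8.07 to 8.26. The difference of R788 effects between the TCMs ran from -0.0019 to 0.17 for Il12a and from -0.17 to 0.63 for Il27 with 1 library left out. The following uncalled values also changed sign when 1 library was left out, and the cause was not tested: Il27 with R788 in NB9464 TCM (-0.45 to 0.35), in NBT3L TCM (-0.62 to 0.039) and between the TCMs (-0.20 to 0.60), the interaction with NB9464 TCM of Ebi3 (-0.0052 to 0.27), the interactions with NBT3L TCM of Il27 (-0.12 to 1.62), Ebi3 (-0.093 to 0.18) and Syk (-0.066 to 0.020), and the ratio of Il12b to Il12a in NB9464 TCM + R788 (-0.043 to 0.078). With longest transcripts that ratio was -0.35, and -0.34 in NBT3L TCM. The change of the ratio of Il27 to Ebi3 with R788 ran from -0.97 to -0.49, and passed the threshold without SJ3 or SJ11. Of the lists, edgeR called 1 in place of 2 transcription factors and 2 in place of 5 restraints with R788 in NB9464 TCM, and in NBT3L TCM 1 in place of 3 transcription factors, 1 in place of 2 receptor chains and 1 in place of 2 cytokines. A fit of only the libraries compared called 5 transcription factors and 4 IL-6 relatives (in place of 1) there. With 1 library left out, R788 in NB9464 TCM gave 2 to 3 restraints in place of 5, 2 to 3 signalling genes in place of 5, 0 to 1 receptor chains in place of 1, 1 to 2 transcription factors in place of 2 and 1 to 3 IL-6 relatives in place of 2, and in NBT3L TCM 0 to 1 transcription factors in place of 3, 0 to 2 receptor chains in place of 2 and 1 to 2 cytokines in place of 2. Over all genes, the difference of R788 effects between the TCMs gave 115 calls, 21 by edgeR and 272 in a fit of only the libraries compared, and 46 to 76 with 1 library left out. Leaving out 1 library also gave 1432 to 1802 calls in place of 2359 for R788 in NB9464 TCM, 1173 to 1262 in place of 2046 in NBT3L TCM, 795 to 1065 in place of 1531 between the TCMs and 852 to 995 in place of 1567 with R788 in both. No paired analysis was possible because the labels number the libraries 1 to 12 and the groups share no number.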
